A study of Mus musculus with 15 samples.

Results

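The genes described here are the enzymes and carriers by which liver turns ammonia into urea and breaks down amino acids. They were listed by symbol in 8 pathway groups (urea cycle, histidine, tyrosine, tryptophan, branched-chain amino acids, glycine, serine with proline and lysine, and transaminases). Of 39 listed symbols, 38 were found among the 23420 genes of the count files, and all 38 had enough counts to be tested. Bckdhk was the one not found, and the neighbouring symbol Bckdk, the kinase that switches off the branched-chain complex, is given separately below as no member of the list.

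Liver RNA came from male C57Bl/6J mice, an inbred strain, fed 1 of 3 diets: a diet with 31% fat that was deficient in methionine, choline and folate (MCD), a diet with 31% fat (HFD), or a base diet with 4% fat (BD). Each diet had 5 libraries of polyA RNA from pulverized left liver lobe. All 15 libraries shared the same handling, the vehicle alone (5% Alkmauls El-620, an emulsifier, in saline), and were taken 24 h later. MCD against BD and HFD against BD ask what each diet does relative to the base diet, and MCD against HFD sets the nutrient deficiency apart at 1 fat content. The sources used here give neither the protein content of the diets nor the age of the mice or the length of feeding. Whether every library is a separate animal is not stated in the labels, and p-values therefore reflect the spread among these samples.

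The urea cycle joins ammonia and bicarbonate in mitochondria, passes the nitrogen through citrulline and argininosuccinate in the cytosol, and releases urea from arginine. Hepatocytes around the portal vein carry most of the cycle and of histidine, serine and glutamine breakdown, while those around the central vein capture leftover ammonia as glutamine. The carbon skeletons of amino acids enter gluconeogenesis or energy metabolism, and in mice the genes are known to respond to protein intake, glucagon and glucocorticoids.

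The libraries held 3704642 to 23131089 gene counts, with a median of 10312311. The listed genes together took 1.22% to 1.65% of gene counts in MCD livers and 1.23% to 1.80% in HFD livers, against 2.07% to 2.56% in BD livers, so the ranges of both 31% fat diets lay wholly below that of BD. The 9 tested hepatocyte markers summed to 135996 to 180905 CPM in MCD and 135547 to 162768 CPM in HFD, against 147998 to 168139 CPM in BD. Alb made up most of each sum, with means of 106506 CPM in MCD, 95946 CPM in HFD and 105825 CPM in BD. Of the 9, 3 fell in MCD livers and 0 were called in HFD livers by edgeR, where 2 had an unadjusted p under 0.05. The 3 became 1 without MCD replicate 1 or BD replicate 1. Macrophage markers summed to 854 to 1086 CPM in MCD and 619 to 987 CPM in HFD, against 430 to 657 CPM in BD. None of the 17 was at 0 in all 5 libraries of a diet. All 17 rose in MCD livers and 4 in HFD livers, where 8 did without BD replicate 5 and 7 by DESeq2. The 12 stellate cell markers summed to 586 to 1018 CPM in MCD and 413 to 585 CPM in HFD, against 328 to 434 CPM in BD. Again none was at 0 in all 5 libraries of a diet. Of the 11 tested, 10 rose in MCD livers. In HFD livers 0 of the 11 were called by edgeR, where 5 were higher at an unadjusted p under 0.05. Over all genes tested, 12.8% were called higher in MCD and 3.65% in HFD. HFD replicate 2 had the highest HFD sums, 987 CPM for macrophage and 585 CPM for stellate markers. The part of these markers in the results on the listed genes was not tested. In bulk tissue, fewer hepatocytes and less RNA per hepatocyte cannot be told apart. The sample numbers run on in 1 block per diet. In every comparison, MCD against HFD included, diet and any batch that follows those numbers therefore cannot be told apart.

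Most genes of urea formation and amino acid breakdown were called lower on each 31% fat diet than on the base diet, and none was called higher. For each diet, 3 of the 38 had a fitted log2 fold change above 0. In MCD livers 26 of 38 fell, while 8.64% of the 12193 genes tested were called lower. In HFD livers 25 of 38 fell, while 3.27% of all genes tested were called lower. The median log2 fold change of the listed genes against BD was -0.68 for MCD and -0.52 for HFD, beside -0.03 and -0.01 over all genes tested. A level under 0.5 times that of BD was fitted for 9 of the genes called in MCD and 7 of those called in HFD. The share of all genes at that cut is not given here, so these counts stand without a background. The libraries of 21 genes in MCD and 20 in HFD did not overlap with those of BD, all of them lower, while 6.07% and 3.56% of all genes tested lay lower without overlap. The 2 comparisons share the BD libraries. Of the 38 genes, Tat, Kmo, Kynu, Bckdha, Bckdhb, Mccc1, Gcsh, Sds and Gpt2 were called in no comparison.

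In MCD against HFD livers, 0 of the 38 genes were called by edgeR, while 3.15% of all genes tested were called. At an unadjusted p under 0.05, 2 were higher and 8 lower in MCD (21.1% lower, against 8.83% of all genes), DESeq2 called 1 higher (Agxt2l1) and 0 lower, and limma-voom called 0. The libraries of every one of the 38 genes overlapped between MCD and HFD, while 4.32% of all genes did not overlap. The median log2 fold change was -0.16, against -0.00 over all genes. These values do not show that the diets acted alike. The calls changed with the libraries used. Without HFD replicate 2, Slc25a15, Hal and Agxt were called lower in MCD (adjusted p 0.0277, 0.0336 and 0.0426), while 409 of 12340 genes (3.31%) were called lower. Without both it and MCD replicate 3, 7 listed genes were called lower, while 482 of 12203 genes (3.95%) were. HFD replicate 2 was the lowest HFD library for 21 of the 38 genes, and MCD replicate 3 the highest MCD library for 11. Leaving them out moves MCD down relative to HFD for those genes, so these calls are no separate support for a difference. Without HFD replicate 5, Agxt2l1 was called higher in MCD (log2 fold change 0.59, adjusted p = 0.0469).

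**Figure D1:**
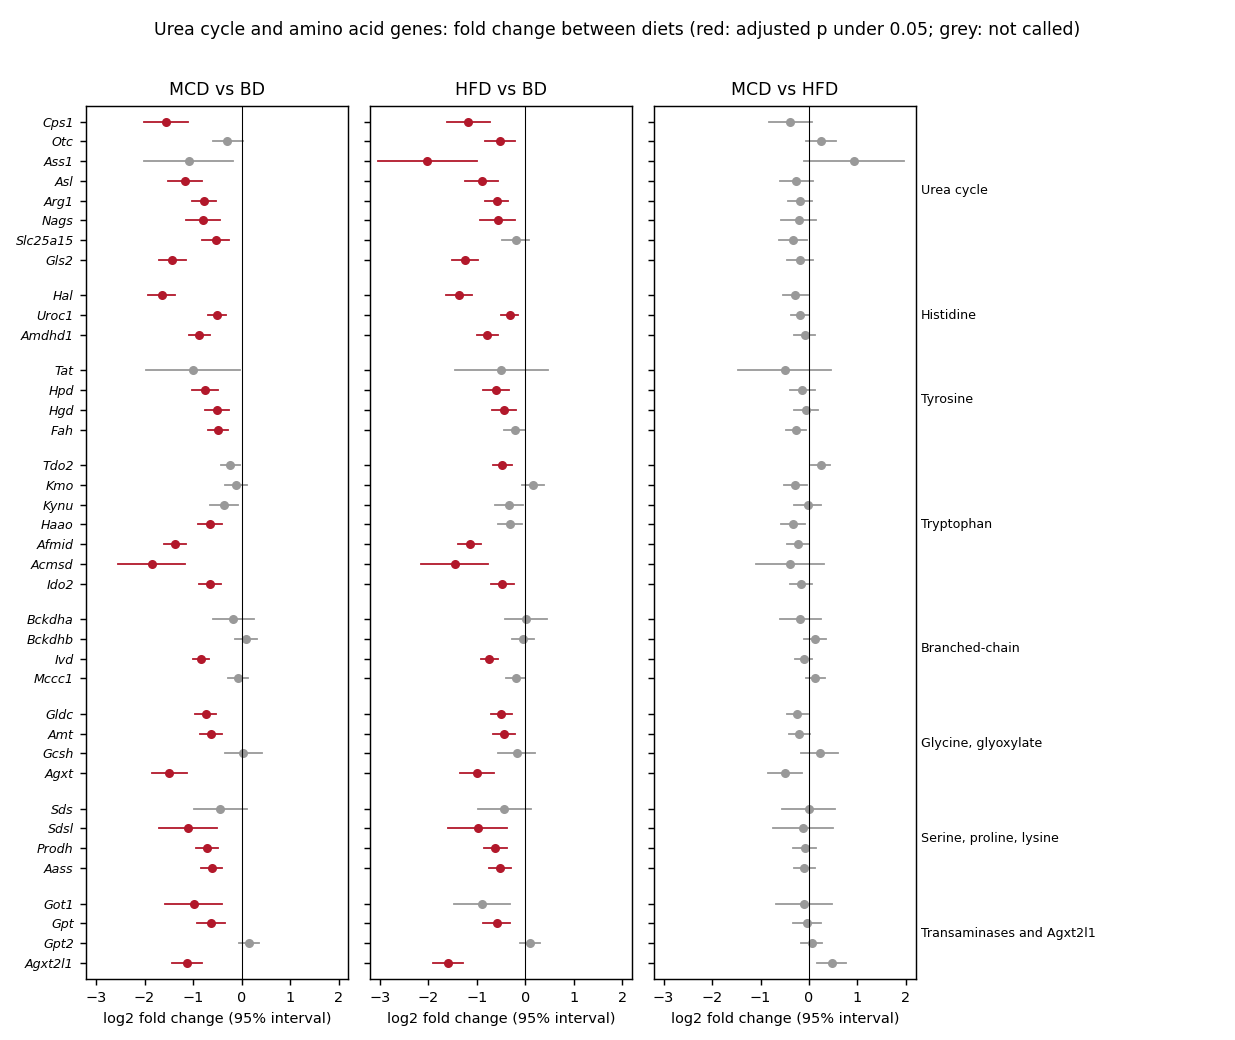
Log2 fold change of each of the 38 genes (rows, by pathway) for MCD vs BD, HFD vs BD and MCD vs HFD, with 95% intervals as bars. Red points passed an adjusted p of 0.05: 26 lie left of 0 in MCD vs BD, 25 in HFD vs BD and 0 in MCD vs HFD.

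Promoters are shown for the 4 genes with the largest fold changes against BD among those described by library below for which RefSeq's table (GRCm38.p6) held one. Each window runs from 250 bases before the gene's start to 50 after it. Capitals mark a match to 1 of 5 motifs searched on both strands. These were the TATA box (TATAAA) and a part of the glucocorticoid receptor motif (TGTTCT). The others were the ATF4 element (TTGCATCA), an HNF4 site (CAAAGTCCA) and the cyclic AMP element (TGACGTCA).
Hal promoter, chr10:93488518-93488817, + strand: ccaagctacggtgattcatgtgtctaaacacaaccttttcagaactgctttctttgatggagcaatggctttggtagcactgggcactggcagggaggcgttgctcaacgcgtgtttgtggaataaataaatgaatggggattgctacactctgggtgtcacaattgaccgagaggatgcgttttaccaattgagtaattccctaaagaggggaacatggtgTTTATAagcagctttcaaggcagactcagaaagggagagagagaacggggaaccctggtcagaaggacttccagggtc
Agxt2l1 promoter, chr3:130617198-130617497, + strand: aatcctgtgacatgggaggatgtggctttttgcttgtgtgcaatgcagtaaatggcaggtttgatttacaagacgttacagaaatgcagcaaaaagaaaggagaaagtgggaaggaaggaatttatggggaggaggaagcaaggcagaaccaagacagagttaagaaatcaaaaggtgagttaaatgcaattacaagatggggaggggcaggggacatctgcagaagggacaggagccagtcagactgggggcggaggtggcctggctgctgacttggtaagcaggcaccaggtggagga
Agxt promoter, chr1:93134990-93135289, + strand: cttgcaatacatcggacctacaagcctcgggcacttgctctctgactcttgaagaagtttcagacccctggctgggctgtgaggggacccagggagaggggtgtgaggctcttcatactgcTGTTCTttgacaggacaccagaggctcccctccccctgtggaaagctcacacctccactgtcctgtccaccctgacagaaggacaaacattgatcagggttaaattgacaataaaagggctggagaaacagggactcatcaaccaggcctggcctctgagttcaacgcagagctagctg
Afmid promoter, chr11:117825669-117825968, + strand: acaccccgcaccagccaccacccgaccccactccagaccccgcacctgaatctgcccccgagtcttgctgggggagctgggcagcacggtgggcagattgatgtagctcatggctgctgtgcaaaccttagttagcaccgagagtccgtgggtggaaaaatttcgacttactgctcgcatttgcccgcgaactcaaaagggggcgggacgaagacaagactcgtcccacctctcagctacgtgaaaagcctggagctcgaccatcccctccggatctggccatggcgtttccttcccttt
The Hal window holds a TATA box that begins 28 bases before the start, read on the other strand from the gene. The Agxt window holds TGTTCT, the part of the glucocorticoid receptor motif. The Agxt2l1 and Afmid windows hold none of the 5. Over the 32 windows of the 29 listed genes in the table, the TATA box was in 3 and TGTTCT in 4. Of 32817 windows of the same length, 13.6% held the TATA box and 19.0% TGTTCT. The ATF4 element was in 1 (Got1) against 0.896%, and the HNF4 and cyclic AMP elements in 0 of 32 against 0.475% and 1.79%. A match of letters is a description and not a binding site.

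In the urea cycle, 6 of 8 genes fell in MCD livers and 7 of 8 in HFD livers. Gls2, the liver glutaminase that releases ammonia for the cycle (chromosome 10, 128194457 to 128210004), had 143, 214, 190, 159 and 196 CPM in MCD livers and 199, 154, 198, 229 and 239 CPM in HFD livers, against 458, 437, 486, 574 and 463 CPM in BD livers. Every MCD and HFD library lay below every BD library. For Gls2, the log2 fold change against BD was -1.43 with an SE of 0.13 and adjusted p = 1.17e-06 in MCD. In HFD, Gls2 had a value of -1.25 with an SE of 0.13 and adjusted p = 5.42e-06. Asl, which splits argininosuccinate into arginine and fumarate (chromosome 5, 130011258 to 130029247), had 187, 234, 277, 245 and 310 CPM in MCD livers and 297, 235, 257, 315 and 401 CPM in HFD livers, against 532, 537, 668, 665 and 407 CPM in BD livers. All MCD and HFD libraries were below the lowest BD library, BD replicate 5, and HFD replicate 5 came closest to it. For Asl, the log2 fold change against BD was -1.16 with an SE of 0.16 and adjusted p = 1.00e-04 in MCD. In HFD, Asl had a value of -0.90 with an SE of 0.16 and adjusted p = 0.00194.

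Cps1, the mitochondrial enzyme that makes carbamoyl phosphate from ammonia and sets the pace of the cycle (chromosome 1, 67123026 to 67231259), is the most abundant of the list in reads and is shown by library although the naming rule did not choose it. It had 1308, 1739, 2316, 1789 and 2504 CPM in MCD livers and 2266, 1356, 2760, 3433 and 2804 CPM in HFD livers, against 6475, 4499, 5901, 6192 and 5485 CPM in BD livers. No MCD or HFD library reached the lowest BD library, and HFD spread more widely than MCD. The log2 fold change against BD was -1.56 with an SE of 0.21 and adjusted p = 1.11e-04 in MCD. In HFD, Cps1 had a value of -1.18 with an SE of 0.21 and adjusted p = 0.00227. Without both HFD replicate 2 and MCD replicate 3, Cps1 was also called lower in MCD than in HFD, with a log2 fold change of -0.61 and an adjusted p of 0.0316. HFD replicate 2 was its lowest HFD library, at 1356 CPM, and leaving it out moves the value that way.

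Of the other genes of the cycle, Arg1 and Nags also fell in MCD livers. Arg1, the arginase that releases urea, averaged 868 ± 49.3 CPM in MCD and 987 ± 156 CPM in HFD, against 1491 ± 243 CPM in BD (SD, n = 5 each), and fell in both (log2 fold change -0.78 with an SE of 0.12 and adjusted p = 1.74e-04, for MCD, and -0.59 with an SE of 0.12 and adjusted p = 0.00397, for HFD). Nags, which makes the activator of the Cps1 enzyme, fell in MCD (log2 fold change -0.79 with an SE of 0.17 and adjusted p = 0.00252). Its call in HFD (log2 fold change -0.57 with an SE of 0.17 and adjusted p = 0.0471) ended without any 1 library other than HFD replicate 1 and BD replicate 5, the lowest BD library for Nags, with adjusted p of 0.0526 to 0.122. That call was lost in 22 of 27 alternatives, a threshold of 0.01 and limma-voom (adjusted p = 0.0745) among them. Slc25a15, the carrier that brings ornithine into mitochondria, fell in MCD (log2 fold change -0.53 with an SE of 0.14 and adjusted p = 0.00821), and its HFD value was not called (log2 fold change -0.20 with a 95% interval of -0.48 to 0.08 and adjusted p = 0.451). Otc, which makes citrulline and lies on the X chromosome (10252305 to 10321024), was called lower in HFD (log2 fold change -0.53 with an SE of 0.15 and adjusted p = 0.0356) and not in MCD (log2 fold change -0.29 with a 95% interval of -0.59 to 0.02 and adjusted p = 0.184). MCD against HFD gave 0.24 with a 95% interval of -0.06 to 0.55 and adjusted p = 0.368. That HFD call ended without any 1 of HFD replicates 1, 2, 3 and 5 and BD replicates 1, 3, 4 and 5, with adjusted p of 0.0522 to 0.0832. Otc was called in MCD without MCD replicate 2, its highest MCD library (log2 fold change -0.44, adjusted p = 0.0136).

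Ass1, which joins citrulline and aspartate (chromosome 2, 31470207 to 31520672), was listed far below its partners in the cycle. It had 7.59, 6.96, 1.85, 2.47 and 4.77 CPM in MCD livers and 2.36, 3.02, 1.42, 1.64 and 3.91 CPM in HFD livers, against 4.26, 5.68, 8.54, 8.96 and 20.1 CPM in BD livers, on 6 to 425 counts per library. BD replicate 5 stood above the rest. MCD overlapped with BD, and the highest HFD library lay just below the lowest BD library. It was called lower in HFD (log2 fold change -2.02 with an SE of 0.48 and adjusted p = 0.0180) and not in MCD (log2 fold change -1.09 with a 95% interval of -2.01 to -0.17 and adjusted p = 0.0870). Of the 50-base stretches of its longest transcript, 55.3% also occur in transcripts of Gm5424, a near-copy with 0 counts in all 15 libraries, and alignments without a unique place entered no gene. The level of Ass1 and its change are therefore uncertain. Per kb of exon, the levels in BD livers ran from 1125 CPM per kb for Hpd, 1028 for Cps1, 928 for Tat and 669 for Arg1 down to 3.94 for Ass1.

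**Figure D2:**
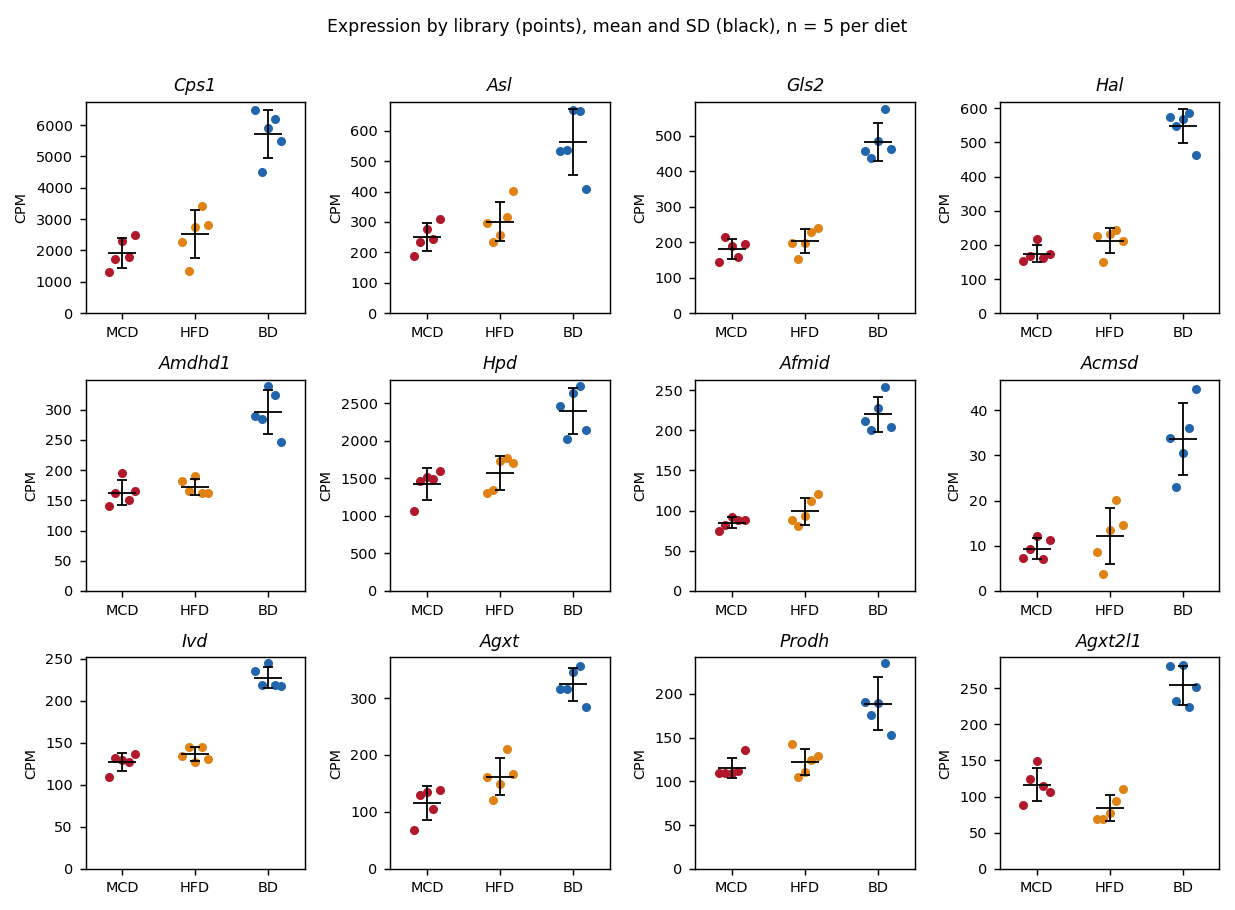
CPM of each library (points) for listed genes in MCD, HFD and BD livers, with the mean and SD (black, n = 5 per diet) and axes that start at 0. In every panel, all MCD and HFD points lie below all BD points, and listed genes whose libraries overlapped with BD are not drawn.

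All 3 genes of histidine breakdown fell on both diets. Hal, histidine ammonia-lyase, which opens the pathway (chromosome 10, 93488768 to 93519304), had 154, 168, 216, 163 and 172 CPM in MCD livers and 226, 149, 232, 244 and 211 CPM in HFD livers, against 573, 547, 567, 586 and 464 CPM in BD livers. All MCD and HFD libraries were below all BD libraries, with BD replicate 5 the lowest of BD. The log2 fold change against BD was -1.65 with an SE of 0.13 and adjusted p = 1.15e-07 in MCD. In HFD, Hal had a value of -1.37 with an SE of 0.13 and adjusted p = 1.53e-06. Amdhd1, which opens the imidazolone ring (chromosome 10, 93523338 to 93540033), had 141, 162, 196, 151 and 165 CPM in MCD livers and 182, 165, 191, 163 and 162 CPM in HFD livers, against 290, 284, 340, 324 and 247 CPM in BD livers. MCD and HFD lay together below BD, and for Amdhd1 the log2 fold change against BD was -0.87 with an SE of 0.10 and adjusted p = 2.38e-05 in MCD. In HFD, Amdhd1 had a value of -0.78 with an SE of 0.10 and adjusted p = 8.79e-05.

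Uroc1, the urocanate hydratase between Hal and Amdhd1, fell to 451 ± 42.9 CPM in MCD and 514 ± 34.1 CPM in HFD, against 642 ± 39.6 CPM in BD (SD, n = 5 each; log2 fold change -0.51 with an SE of 0.09 and adjusted p = 4.55e-04, for MCD, and -0.32 with an SE of 0.09 and adjusted p = 0.0312, for HFD). Its HFD call ended without any 1 of MCD replicate 5, HFD replicates 1, 3 and 5 and BD replicates 1 to 4, with adjusted p of 0.0501 to 0.105. Thinned counts, no count filter and no TMM factors ended it too.

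Of the 4 genes of tyrosine breakdown, 3 fell in MCD livers and 2 in HFD livers. Hpd, the dioxygenase that makes homogentisate (chromosome 5, 123171807 to 123182727), had 1059, 1466, 1521, 1489 and 1590 CPM in MCD livers and 1304, 1341, 1733, 1767 and 1702 CPM in HFD livers, against 2457, 2020, 2631, 2728 and 2138 CPM in BD livers. MCD and HFD did not overlap with BD, and MCD replicate 1 was the lowest library. For Hpd, the log2 fold change against BD was -0.75 with an SE of 0.13 and adjusted p = 4.20e-04 in MCD. In HFD, Hpd had a value of -0.61 with an SE of 0.13 and adjusted p = 0.00548. Hgd, which opens the ring of homogentisate (chromosome 16, 37580153 to 37632020), had 496, 752, 543, 490 and 542 CPM in MCD livers and 573, 515, 564, 639 and 655 CPM in HFD livers, against 791, 675, 826, 913 and 792 CPM in BD livers. MCD replicate 2 alone lay within the BD range, above BD replicate 2. For Hgd, the log2 fold change against BD was -0.50 with an SE of 0.12 and adjusted p = 0.00496 in MCD. In HFD, Hgd had a value of -0.44 with an SE of 0.12 and adjusted p = 0.0295. The HFD call of Hgd ended without any 1 of HFD replicates 1, 2 and 3 and BD replicates 1, 3 and 4, with adjusted p of 0.0611 to 0.0855.

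Fah, the last enzyme of the route, which yields fumarate and acetoacetate (chromosome 7, 84585159 to 84606722), had 466, 597, 603, 566 and 605 CPM in MCD livers and 662, 589, 711, 767 and 687 CPM in HFD livers, against 785, 754, 830, 913 and 685 CPM in BD livers. MCD lay below BD throughout, while HFD overlapped with it. Fah fell in MCD (log2 fold change -0.48 with an SE of 0.10 and adjusted p = 0.00209) and was not called in HFD (log2 fold change -0.22 with a 95% interval of -0.43 to -0.00 and adjusted p = 0.240). Tat, the aminotransferase that starts tyrosine breakdown and a known glucocorticoid target, ranged from 457 to 1949 CPM in MCD and from 566 to 2724 CPM in HFD, against 1541 to 3047 CPM in BD. The diets overlapped, and neither the log2 fold change -1.00 with a 95% interval of -1.97 to -0.04 and adjusted p = 0.136 for MCD nor -0.50 with a 95% interval of -1.46 to 0.46 and adjusted p = 0.599 for HFD was called.

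Along the kynurenine route of tryptophan, 4 of 7 genes fell on each diet. Afmid, the formamidase that yields kynurenine (chromosome 11, 117825924 to 117839908), had 74.2, 81.9, 92.3, 88.2 and 87.9 CPM in MCD livers and 88.8, 81.4, 93.1, 112 and 121 CPM in HFD livers, against 212, 200, 228, 254 and 204 CPM in BD livers. MCD and HFD lay far below BD without overlap, and for Afmid the log2 fold change against BD was -1.37 with an SE of 0.11 and adjusted p = 2.16e-07 in MCD. In HFD, Afmid had a value of -1.14 with an SE of 0.11 and adjusted p = 2.39e-06. Tdo2, the dioxygenase that starts the route in liver (chromosome 3, 81957090 to 81976202), had 1421, 1622, 1460, 1509 and 1328 CPM in MCD livers and 1119, 1333, 1146, 1360 and 1272 CPM in HFD livers, against 1836, 1529, 1747, 1574 and 1943 CPM in BD livers. HFD lay wholly below BD, while MCD overlapped with BD and HFD. Tdo2 fell in HFD (log2 fold change -0.47 with an SE of 0.09 and adjusted p = 0.00407) and was not called in MCD (log2 fold change -0.23 with a 95% interval of -0.43 to -0.04 and adjusted p = 0.0869). For Tdo2, MCD against HFD gave 0.24 with a 95% interval of 0.04 to 0.43 and adjusted p = 0.164. Ido2, a related dioxygenase (chromosome 8, 24531892 to 24576333), had 94.8, 108, 97.4, 98.5 and 102 CPM in MCD livers and 103, 92.3, 122, 135 and 111 CPM in HFD livers, against 164, 125.59, 164, 185 and 146 CPM in BD livers. MCD lay below BD, HFD replicate 4 lay within it, and for Ido2 the log2 fold change against BD was -0.65 with an SE of 0.11 and adjusted p = 4.04e-04 in MCD. In HFD, Ido2 had a value of -0.47 with an SE of 0.11 and adjusted p = 0.0117.

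Acmsd, which turns an intermediate away from NAD synthesis (chromosome 1, 127729413 to 127767978), had the largest fitted fall of the list in MCD and is shown for that reason. It had 7.24, 9.24, 12.1, 7.02 and 11.3 CPM in MCD livers and 8.69, 3.78, 13.5, 20.2 and 14.7 CPM in HFD livers, against 33.8, 22.9, 30.5, 36.0 and 44.7 CPM in BD livers. HFD replicate 2 was the lowest of all libraries, and no MCD or HFD library reached BD replicate 2, the lowest of BD. For Acmsd, the log2 fold change against BD was -1.85 with an SE of 0.33 and adjusted p = 9.57e-04 in MCD. In HFD, Acmsd had a value of -1.46 with an SE of 0.33 and adjusted p = 0.0128. Haao, a later dioxygenase towards NAD, fell in MCD (log2 fold change -0.65 with an SE of 0.12 and adjusted p = 7.77e-04). In HFD its value was a log2 fold change -0.32 with a 95% interval of -0.57 to -0.07 and adjusted p = 0.124, and it was called there without BD replicate 5 (adjusted p = 0.0426). Kynu, the kynureninase, had a log2 fold change -0.37 with a 95% interval of -0.65 to -0.08 and adjusted p = 0.0611 in MCD and -0.34 with a 95% interval of -0.62 to -0.05 and adjusted p = 0.162 in HFD, and was called in MCD without MCD replicate 2 (adjusted p = 0.00639) or BD replicate 2 (adjusted p = 0.0342). Kmo, the kynurenine hydroxylase, had a log2 fold change -0.12 with a 95% interval of -0.35 to 0.11 and adjusted p = 0.467 in MCD and 0.16 with a 95% interval of -0.07 to 0.39 and adjusted p = 0.477 in HFD.

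In branched-chain amino acid breakdown, 1 of 4 genes fell, and it was the same gene on both diets. Ivd, isovaleryl-CoA dehydrogenase of the leucine route (chromosome 2, 118861954 to 118882909), had 109, 132, 129.57, 127.01 and 137 CPM in MCD livers and 134, 145, 126.54, 145 and 131 CPM in HFD livers, against 236, 219, 245, 219 and 218 CPM in BD livers. The 10 libraries of MCD and HFD lay close together, all below BD. For Ivd, the log2 fold change against BD was -0.84 with an SE of 0.08 and adjusted p = 2.61e-06 in MCD. In HFD, Ivd had a value of -0.74 with an SE of 0.08 and adjusted p = 1.22e-05. Neither E1 subunit of the shared first complex was called. Bckdha, the E1 alpha subunit, had a log2 fold change -0.17 with a 95% interval of -0.59 to 0.26 and adjusted p = 0.603 in MCD and 0.02 with a 95% interval of -0.41 to 0.44 and adjusted p = 0.979 in HFD. Bckdhb, the E1 beta subunit, had a log2 fold change 0.09 with a 95% interval of -0.14 to 0.31 and adjusted p = 0.614 in MCD and -0.04 with a 95% interval of -0.27 to 0.18 and adjusted p = 0.884 in HFD. Mccc1, the carboxylase subunit after Ivd, had a log2 fold change -0.07 with a 95% interval of -0.27 to 0.13 and adjusted p = 0.647 in MCD and -0.20 with a 95% interval of -0.40 to -0.00 and adjusted p = 0.247 in HFD. Bckdk, not a member, had a log2 fold change 0.30 with a 95% interval of 0.03 to 0.57 and adjusted p = 0.103 in MCD and 0.40 with a 95% interval of 0.13 to 0.67 and adjusted p = 0.0733 in HFD, and DESeq2, limma-voom and the fit with a covariate for non-unique alignments called it higher in HFD (adjusted p 0.0373, 0.0460 and 0.0497).

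**Figure D3:**
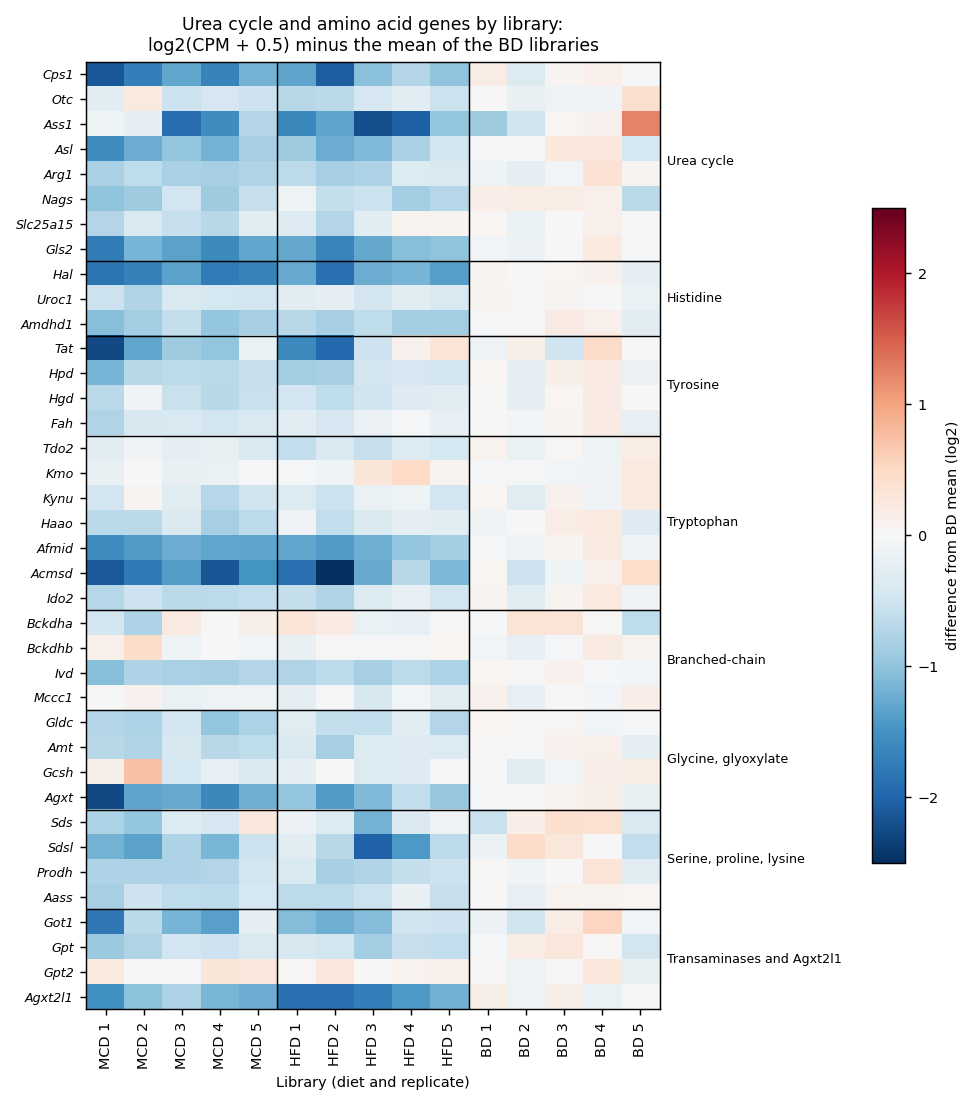
Each cell is log2(CPM + 0.5) of 1 library minus the mean of the BD libraries, with genes in rows by pathway and libraries in columns, MCD at the left, then HFD and BD, and a colour scale that ends at 2.5 in either direction. Most rows are blue (lower) across the MCD and HFD libraries, while Gpt2, Kmo, Bckdhb and Mccc1 stay mostly near white, light red or light blue.

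In glycine metabolism, 3 of 4 genes fell on each diet. Agxt, which converts glyoxylate to glycine (chromosome 1, 93135240 to 93145421), had 67.6, 129.98, 135, 105 and 139 CPM in MCD livers and 162, 121, 149, 211 and 167 CPM in HFD livers, against 316, 316, 345, 357 and 285 CPM in BD livers. MCD replicate 1 was the lowest library, and no MCD or HFD library reached BD. For Agxt, the log2 fold change against BD was -1.49 with an SE of 0.17 and adjusted p = 2.38e-05 in MCD. In HFD, Agxt had a value of -1.00 with an SE of 0.17 and adjusted p = 0.00122. Gldc, the decarboxylase of the glycine cleavage system (chromosome 19, 30098447 to 30175429), had 198, 188, 236, 168 and 190 CPM in MCD livers and 266, 216, 213, 269 and 196 CPM in HFD livers, against 341, 326, 335, 314 and 322 CPM in BD livers. BD libraries lay close together above all the others, and for Gldc the log2 fold change against BD was -0.74 with an SE of 0.10 and adjusted p = 9.20e-05 in MCD. In HFD, Gldc had a value of -0.50 with an SE of 0.10 and adjusted p = 0.00569. Amt, the aminomethyltransferase of the same system, averaged 51.1 ± 5.27 CPM in MCD and 58.9 ± 7.98 CPM in HFD, against 79.7 ± 7.72 CPM in BD (SD, n = 5 each; log2 fold change -0.64 with an SE of 0.11 and adjusted p = 3.67e-04, for MCD, and -0.44 with an SE of 0.11 and adjusted p = 0.0173, for HFD). The HFD call of Amt ended without HFD replicate 2 (0.0502), BD replicate 3 (0.0522) or BD replicate 4 (0.0513, adjusted p). It also ended with thinned counts (adjusted p = 0.0712). Gcsh, the lipoyl carrier protein of the system, had a log2 fold change 0.03 with a 95% interval of -0.35 to 0.42 and adjusted p = 0.925 in MCD and -0.18 with a 95% interval of -0.57 to 0.21 and adjusted p = 0.648 in HFD.

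Of the serine, proline and lysine genes, 3 of 4 fell on each diet. Prodh, proline dehydrogenase (chromosome 16, 18060357 to 18090203), had 109, 109, 110, 112 and 136 CPM in MCD livers and 143, 105, 111, 124 and 129.46 CPM in HFD livers, against 191, 176, 189, 235 and 153 CPM in BD livers. Every MCD and HFD library was below BD replicate 5, the lowest of BD, and for Prodh the log2 fold change against BD was -0.71 with an SE of 0.11 and adjusted p = 2.36e-04 in MCD. In HFD, Prodh had a value of -0.62 with an SE of 0.11 and adjusted p = 0.00194. Aass, which starts lysine breakdown (chromosome 6, 23072173 to 23132986), had 227, 285, 261, 259 and 298 CPM in MCD livers and 259, 256, 278, 355 and 271 CPM in HFD livers, against 403, 352, 429, 432 and 418 CPM in BD livers. HFD replicate 4 alone reached the BD range, just above BD replicate 2. For Aass, the log2 fold change against BD was -0.61 with an SE of 0.10 and adjusted p = 4.04e-04 in MCD. In HFD, Aass had a value of -0.52 with an SE of 0.10 and adjusted p = 0.00404.

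Sdsl, a relative of serine dehydratase, was low, at 3.51 ± 0.943 CPM in MCD and 3.70 ± 1.79 CPM in HFD, against 7.55 ± 2.16 CPM in BD (SD, n = 5 each). It fell in MCD (log2 fold change -1.11 with an SE of 0.28 and adjusted p = 0.00891). The HFD call (log2 fold change -0.98 with an SE of 0.29 and adjusted p = 0.0490) ended without any 1 of MCD replicates 1, 3, 4 and 5, HFD replicates 2 to 5 and BD replicates 1 to 4, with adjusted p of 0.0558 to 0.131. That call was lost in 21 of 27 alternatives, a threshold of 0.01, limma-voom (adjusted p = 0.0567) and thinned counts (adjusted p = 0.102) among them. Sds, serine dehydratase, had a log2 fold change -0.44 with a 95% interval of -0.98 to 0.11 and adjusted p = 0.248 in MCD and -0.44 with a 95% interval of -0.98 to 0.11 and adjusted p = 0.384 in HFD.

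Among the transaminases and their relatives, 3 of 4 fell in MCD livers and 2 of 4 in HFD livers. Agxt2l1 (newer symbol Etnppl; chromosome 3, 130617448 to 130637521) is an aminotransferase relative that cleaves phosphoethanolamine. It had 88.0, 124, 149, 115 and 107 CPM in MCD livers and 69.3, 69.2, 76.8, 93.8 and 110 CPM in HFD livers, against 281, 232, 282, 224 and 252 CPM in BD livers. Both diets lay below BD, and most HFD libraries lay below most MCD libraries, with HFD replicates 4 and 5 within the MCD range. For Agxt2l1, the log2 fold change against BD was -1.12 with an SE of 0.14 and adjusted p = 4.32e-05 in MCD. In HFD, Agxt2l1 had a value of -1.60 with an SE of 0.15 and adjusted p = 1.51e-06. It had the smallest p of the list between MCD and HFD, a log2 fold change 0.47 with a 95% interval of 0.17 to 0.77 and adjusted p = 0.0735, and was called higher in MCD with upper-quartile factors (0.0461), without TMM factors (0.0289) and by DESeq2 (0.0393, adjusted p).

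Gpt, the cytosolic alanine transaminase (chromosome 15, 76695716 to 76699686), had 138, 156, 189, 183 and 202 CPM in MCD livers and 201, 193, 146, 176 and 172 CPM in HFD livers, against 256, 301, 321, 271 and 191 CPM in BD livers. BD replicate 5 lay among the MCD and HFD libraries and the other 4 BD libraries above them. For Gpt, the log2 fold change against BD was -0.63 with an SE of 0.13 and adjusted p = 0.00240 in MCD. In HFD, Gpt had a value of -0.59 with an SE of 0.13 and adjusted p = 0.0105. Gpt2, the mitochondrial alanine transaminase, had a log2 fold change 0.16 with a 95% interval of -0.06 to 0.37 and adjusted p = 0.296 in MCD and 0.10 with a 95% interval of -0.11 to 0.31 and adjusted p = 0.649 in HFD. Got1, the cytosolic aspartate transaminase, averaged 161 ± 68.9 CPM in MCD and 172 ± 42.4 CPM in HFD, against 318 ± 86.6 CPM in BD (SD, n = 5 each). It fell in MCD (log2 fold change -0.99 with an SE of 0.27 and adjusted p = 0.0173), a call that ended with a covariate for non-unique alignments (adjusted p = 0.0527). In HFD its value was a log2 fold change -0.89 with a 95% interval of -1.47 to -0.31 and adjusted p = 0.0653, and it was called lower there by DESeq2 (0.00822), with only the 2 diets compared (0.0214) and without MCD replicate 1 (0.0373) or MCD replicate 5 (0.0296, adjusted p).

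Within a diet, the listed genes were not spread evenly over the libraries. HFD replicate 2 was the lowest HFD library for 21 of 38 genes and MCD replicate 1 the lowest MCD library for 19. In BD, replicate 2 was the lowest for 17 and replicate 5 for 15. HFD replicate 4 was the highest HFD library for 18 genes and BD replicate 4 the highest BD library for 18. The median over the 38 genes of the log2 difference from the BD mean ran from -0.81 to -0.57 in MCD libraries and from -0.72 to -0.35 in HFD libraries, against -0.13 to 0.12 in BD libraries.

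The wider set of genes of the same routes, 68 tested of 76 found of 82 listed, moved in both directions. In MCD livers 27 fell and 5 rose, while 8.64% of all genes tested were called lower and 12.8% higher. In HFD livers 13 fell and 3 rose, while 3.27% were called lower and 3.65% higher. The 27 became 17 without BD replicate 3 and 15 without TMM factors, where 6.82% and 4.20% of all genes were called lower. The medians of the log2 fold changes against BD were -0.25 for MCD and -0.14 for HFD. By list, the genes beside the urea cycle (10 tested) had 1 higher and 1 lower in MCD and 1 higher in HFD. Beside histidine (3 tested), 1 was higher and 1 lower in MCD and 1 lower in HFD. Beside tyrosine (5 tested) and tryptophan (6 tested), 2 of each were lower in MCD and 1 of each in HFD. Of 21 branched-chain genes, 10 were lower in MCD and 4 in HFD. The 10 became 6 without MCD replicate 1, 3 or 5 or with upper-quartile factors, no count filter or at least 5 CPM in 5 libraries. They became 5 without BD replicate 1, which ended the calls of Bcat2, Ppm1k, Mut, Hibadh and Aldh6a1 (adjusted p 0.157, 0.0601, 0.105, 0.121 and 0.104). Without BD replicate 3 they also became 5, and 4 without TMM factors. Of 14 glycine, serine and threonine genes, 2 were higher and 7 lower in MCD, and 1 higher and 4 lower in HFD. Of 11 proline and lysine genes, 1 was higher and 4 lower in MCD, and 1 higher and 2 lower in HFD. Those 4 became 2 without MCD replicate 1 or 3, BD replicate 1 or 3 or TMM factors, and with upper-quartile factors, thinned counts or either other count filter, and the 2 in HFD became 1 without HFD replicate 1, 3 or 4, BD replicate 1, 2 or 3 or TMM factors.

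Psat1, an enzyme of serine synthesis, rose on both diets, with 5.86, 4.15, 7.66, 4.43 and 3.76 CPM in MCD livers and 4.39, 2.74, 3.79, 4.68 and 5.66 CPM in HFD livers, against 0.852, 0.826, 0.776, 0.853 and 0.425 CPM in BD livers. No BD library reached the MCD or HFD range, although the levels were low. For Psat1, the log2 fold change against BD was 2.91 with an SE of 0.29 and adjusted p = 3.35e-06 in MCD. In HFD, Psat1 had a value of 2.62 with an SE of 0.30 and adjusted p = 1.86e-05. Gnmt, which methylates glycine with S-adenosylmethionine, averaged 587 ± 164 CPM in MCD and 862 ± 80.3 CPM in HFD, against 1777 ± 502 CPM in BD (SD, n = 5 each; log2 fold change -1.60 with an SE of 0.20 and adjusted p = 5.67e-05, for MCD, and -1.04 with an SE of 0.20 and adjusted p = 0.00337, for HFD).

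Glul, glutamine synthetase of the central-vein hepatocytes, rose, at 1460 ± 191 CPM in MCD and 1374 ± 70.8 CPM in HFD, against 945 ± 109 CPM in BD (SD, n = 5 each; log2 fold change 0.63 with an SE of 0.10 and adjusted p = 3.26e-04, for MCD, and 0.54 with an SE of 0.10 and adjusted p = 0.00290, for HFD). Of the 10 periportal marker genes outside the list, 3 rose and 3 fell in MCD, and 2 rose and 1 fell in HFD. Of 14 pericentral markers, Glul included, 2 rose and 3 fell in MCD, and 4 rose and 2 fell in HFD. Leaving out 1 library gave 2 to 3 higher and 1 to 4 lower in MCD, and 2 to 4 higher and 1 to 2 lower in HFD. Periportal markers, with Gls2, Hal and Sds of the list among them, summed to 5557 to 9397 CPM in MCD and 7387 to 10012 CPM in HFD, against 7052 to 8776 CPM in BD, and these ranges overlapped. The sums do not show these genes unchanged, since they moved in opposite directions. Apoa4 averaged 1504 CPM in MCD and 2077 CPM in HFD, against 115 CPM in BD. Cyp2f2 averaged 1256 CPM in MCD and 1393 CPM in HFD, against 1981 CPM in BD. Car5a, the carbonic anhydrase that supplies bicarbonate to the Cps1 enzyme, was lower in MCD (log2 fold change -0.39 with an SE of 0.12 and adjusted p = 0.0298), a call that ended without any 1 of MCD replicates 1 to 4, HFD replicates 1 and 3 and BD replicates 1, 3 and 4 (adjusted p 0.0501 to 0.0999).

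Outside the list but beside its histidine and tyrosine genes, Ftcd, which takes the last histidine intermediate onto folate, fell in both (log2 fold change -0.71 with an SE of 0.10 and adjusted p = 1.25e-04, for MCD, and -0.47 with an SE of 0.10 and adjusted p = 0.00869, for HFD). Hnmt, which methylates histamine, rose in MCD (log2 fold change 0.67 with an SE of 0.16 and adjusted p = 0.00496). Qdpr, which renews tetrahydrobiopterin, fell in both (log2 fold change -0.74 with an SE of 0.17 and adjusted p = 0.00389, for MCD, and -0.66 with an SE of 0.17 and adjusted p = 0.0221, for HFD), and the HFD call ended without HFD replicate 2 (0.0649), BD replicate 3 (0.0573) or BD replicate 4 (0.0680, adjusted p).

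In the remaining routes, Dbt, the E2 core of the branched-chain complex, fell on both diets (log2 fold change -0.97 with an SE of 0.10 and adjusted p = 6.24e-06, for MCD, and -0.72 with an SE of 0.10 and adjusted p = 1.78e-04, for HFD), as did Abat, which breaks down GABA and the valine product beta-aminoisobutyrate (log2 fold change -0.90 with an SE of 0.12 and adjusted p = 6.13e-05, for MCD, and -0.51 with an SE of 0.12 and adjusted p = 0.0130, for HFD). Aldh7a1, an aldehyde dehydrogenase of lysine breakdown, fell on both (log2 fold change -0.72 with an SE of 0.08 and adjusted p = 9.77e-06, for MCD, and -0.58 with an SE of 0.08 and adjusted p = 1.33e-04, for HFD). Agphd1, a hydroxylysine kinase, rose on both (log2 fold change 0.50 with an SE of 0.12 and adjusted p = 0.00415, for MCD, and 0.69 with an SE of 0.12 and adjusted p = 9.53e-04, for HFD). Ccbl1, a kynurenine aminotransferase, fell in MCD (log2 fold change -0.84 with an SE of 0.16 and adjusted p = 0.00119), and its HFD call (log2 fold change -0.55 with an SE of 0.16 and adjusted p = 0.0444) ended without any 1 of MCD replicates 2, 4 and 5, HFD replicates 1 to 4 and BD replicates 1 to 4 (adjusted p 0.0507 to 0.117). Without TMM factors (0.0596) or a count filter (0.0557, adjusted p) that HFD call ended too. Naprt1, which makes NAD from nicotinic acid, was lower in MCD (log2 fold change -0.44 with an SE of 0.13 and adjusted p = 0.0226), a call that ended without any 1 of MCD replicates 1, 2 and 4 and BD replicates 1 to 4 (adjusted p 0.0548 to 0.0648). Between MCD and HFD, Shmt1 and Dmgdh, enzymes of folate-linked glycine metabolism, were called lower in MCD (adjusted p 0.0450 and 0.0466), and both calls ended without any 1 of MCD replicates 1, 4 and 5, HFD replicates 1, 3, 4 and 5 and BD replicates 1 to 4 (adjusted p 0.0529 to 0.121 for Shmt1 and 0.0522 to 0.156 for Dmgdh).

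**Figure D4:**
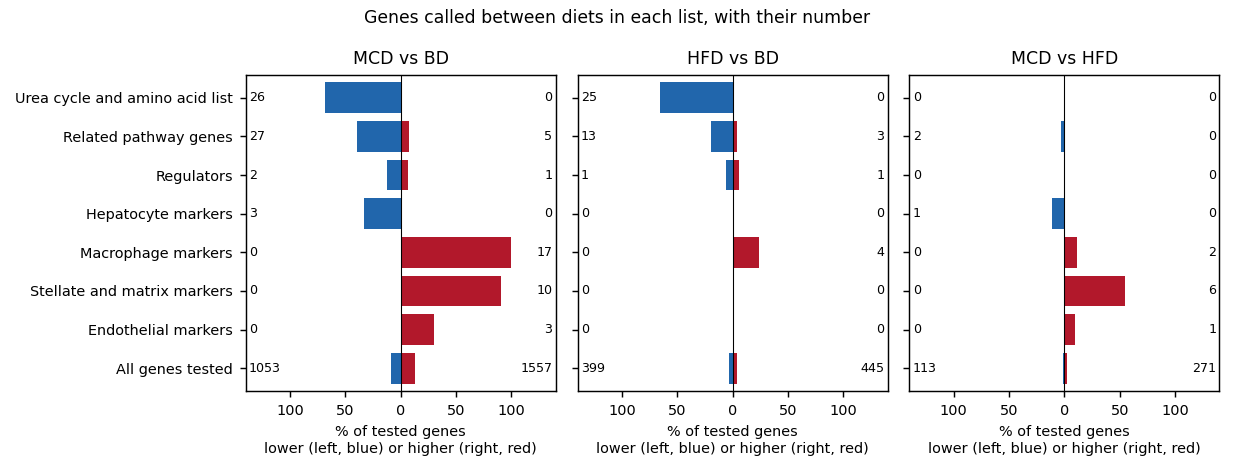
Percent of tested genes called lower (blue, left) or higher (red, right) in the list, the related pathway genes, regulators, markers of 4 cell types and all genes, for the 3 comparisons, with the number of genes at each edge. The list has 26 and 25 genes lower and 0 higher against BD, while the macrophage markers have 17 and 4 genes higher and 0 lower.

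Of 16 transcription factors, coactivators and receptors of liver metabolism, 2 fell and 1 rose in MCD, and 1 fell and 1 rose in HFD. Over all genes tested, 8.64% were called lower and 12.8% higher in MCD, and 3.27% lower and 3.65% higher in HFD. Ppara, the fatty acid receptor that in mice is known to restrain amino acid breakdown genes, rose on both, with 424, 312, 495, 540 and 436 CPM in MCD livers and 616, 558, 578, 502 and 535 CPM in HFD livers, against 304, 304, 302, 197 and 327 CPM in BD livers. HFD lay above BD throughout, and MCD replicate 2 lay within BD. For Ppara, the log2 fold change against BD was 0.62 with an SE of 0.14 and adjusted p = 0.00347 in MCD. In HFD, Ppara had a value of 0.96 with an SE of 0.14 and adjusted p = 2.42e-04. Hnf4a, a hepatocyte factor, fell in MCD (log2 fold change -0.37 with an SE of 0.09 and adjusted p = 0.00777), a call that ended without TMM factors (adjusted p = 0.0933). Atf4, the factor of the amino acid deprivation response, fell in HFD (log2 fold change -0.54 with an SE of 0.13 and adjusted p = 0.0153), which was lost without BD replicate 4 (adjusted p 0.0530), and was not called in MCD (log2 fold change -0.24 with a 95% interval of -0.51 to 0.03 and adjusted p = 0.205). Crtc2, a coactivator of the glucagon response, was called lower in MCD (log2 fold change -0.38 with an SE of 0.13 and adjusted p = 0.0362), which ended without any 1 of MCD replicates 1, 2 and 4, HFD replicates 1 to 3 and BD replicates 1 to 4 (adjusted p 0.0517 to 0.130). Klf15, a known inducer of amino acid breakdown genes, had a log2 fold change -0.29 with a 95% interval of -0.80 to 0.23 and adjusted p = 0.440 in MCD and -0.17 with a 95% interval of -0.69 to 0.34 and adjusted p = 0.761 in HFD. Nr3c1, the glucocorticoid receptor, had a log2 fold change -0.17 with a 95% interval of -0.35 to 0.02 and adjusted p = 0.189 in MCD and 0.09 with a 95% interval of -0.09 to 0.28 and adjusted p = 0.611 in HFD.

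Values of 4 further genes carry a limit of counting. Of the 50-base stretches of the longest transcript, 64.0% of Afmid occur also in Gm20708, 50.8% of Bckdha in B3gnt8, 28.9% of Sds in Plbd2 and 20.0% of Nags in Gm11586, and reads there may have been given to either gene or to none.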

How the data were processed

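PolyA RNA of 15 liver libraries was sequenced with a kit that keeps strand, per the labels' protocols. The deposited files hold whole-number read counts per gene symbol, made by the authors with Trimmomatic, TopHat2 2.0.13 and HTSeq on GRCm38/mm10, with DESeq2 also named, per the submitters' processing notes. The sources used here do not name the annotation, the strand setting or the mode of counting, so overlapping and antisense genes are uncertain. The 5 closing rows, which name no gene, stayed out. They held reads outside genes, 12.7% to 17.0% of uniquely placed reads, ambiguous reads, 0.567% to 0.841%, and non-unique alignments, 1.15 to 2.80 per gene count.

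The test was edgeR 4.0.16 (R 4.3.3) with TMM factors, filterByExpr (minimum count 10, minimum total 15), which left 12193 of 23420 genes, 1 robust quasi-likelihood fit over all libraries and a two-sided F test per pair of diets. A call means a Benjamini-Hochberg adjusted p, over all genes tested, under 0.05. The SE equals the absolute log2 fold change over the root of its F. CPM values use the TMM factors, and 3 counts corresponded to 0.130 to 0.810 CPM. The common biological coefficient of variation was 0.176. Alternatives were DESeq2 1.42.0, limma-voom (limma 3.58.1), other scalings, filters and fits, and leaving out libraries.

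The listed genes, the related lists and the tests were chosen with earlier results of these data known. Given by library were the 2 called genes with the smallest p per pathway and diet against BD. Cps1, Ass1, Acmsd, Psat1 and Ppara by library, and Bckdk, were added after their values were seen. Related genes named are the 2 called with the smallest p per list, of which 1 gene is not reported here, and any regulator called; Shmt1, Dmgdh, Klf15 and Nr3c1 were added. Positions are from GENCODE M21 (GRCm38), and Agxt2l1 was matched to Etnppl by RefSeq's synonyms. Replicate numbers follow the order of deposit. Same-diet libraries differed by 7.33 to 65.0 in chi-square per degree of freedom over 30 pairs, so each was counted. On simulated counts, the fit recovered 21 of 50 genes changed 1.5-fold for each diet against BD and 20 for MCD against HFD, and all 50 changed 4-fold, with 4.94% (HFD against BD), 4.27% (MCD against BD) and 4.24% (MCD against HFD) of calls false.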

Additional observations from a re-analysis of the deposited data

Results flagged for a closer look

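Of 114 groups of 5 libraries (38 genes on 3 diets), 12 held a library whose gap to the nearest other library was larger, as a share of the group's range, than Dixon's 95% critical value. Chance alone marks about 1 group in 20. In MCD livers, replicate 2 was high for Otc at 752 CPM (others 436 to 526 CPM) and for Hgd at 752 CPM (others 490 to 543 CPM). MCD replicate 1 was low for Hpd at 1059 CPM (others 1466 to 1590 CPM) and for Fah at 466 CPM (others 566 to 605 CPM). Hal was high in MCD replicate 3 at 216 CPM (others 154 to 172 CPM) and Prodh in MCD replicate 5 at 136 CPM (others 109 to 112 CPM).

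In HFD livers, Amt was low in replicate 2 at 44.7 CPM (others 61.5 to 63.6 CPM), Sds low in replicate 3 at 34.8 CPM (others 62.1 to 73.1 CPM) and Aass high in replicate 4 at 355 CPM (others 256 to 278 CPM). In BD livers, replicate 5 was low for Nags at 48.2 CPM (others 83.7 to 87.4 CPM) and for Uroc1 at 573 CPM (others 648 to 669 CPM), and high for Kmo at 433 CPM (others 345 to 354 CPM).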

How the results depend on the processing

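No paired analysis was possible because the replicate numbers follow the order of deposit and link no libraries between diets. Of 51 called results on the listed genes, 44 stayed called under every alternative except a threshold of 0.01, 12 of 63 results that were not called became so under at least 1 alternative, and 0 reversed. At an adjusted p under 0.01, 15 listed genes were lower in HFD than in BD, while 1.54% of all genes tested were called lower. In either direction, 376 genes of all were called for HFD against BD, 1446 for MCD against BD and 43 for MCD against HFD. Leaving out each library in turn gave 1938 to 2809 genes for MCD against BD, 569 to 974 for HFD against BD, and 74 (without HFD replicate 4) to 1248 (without HFD replicate 2) for MCD against HFD. The listed genes called lower then numbered 26 to 28, 19 (without BD replicate 3) to 25, and 0 to 3, and those higher 0 to 1 for MCD against HFD. The 384 genes called between MCD and HFD became 113 when non-unique alignments entered as a covariate, 220 with at least 5 CPM in 5 libraries, 224 with only the 2 diets, 154 with thinned counts, 701 with DESeq2 and 1365 without both HFD replicate 2 and MCD replicate 3. Single libraries whose omission moved them by over 1.5 times gave 113, 142 and 220 (MCD replicates 1, 4 and 5), 181, 156 and 155 (HFD replicates 1, 3 and 5), and the 1248 and 74 above. Agxt2l1 was the 1 listed gene higher in MCD than in HFD with upper-quartile factors, without TMM factors and with DESeq2. The 7 lower without both libraries were Cps1, Slc25a15, Hal, Haao, Gldc, Amt and Agxt. The cause was not tested. Without TMM factors the median of all genes moved to 0.12 (MCD against BD), 0.06 (HFD against BD) and 0.07 (MCD against HFD), and 81.8%, 66.5% and 86.0% of calls were higher, against 59.7%, 52.7% and 70.6% with them. The listed genes lower against BD numbered 25 to 26 in MCD and 21 to 26 in HFD over the alternatives at 0.05 that keep all libraries or drop both.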
